A study of Mus musculus with 6 samples.

Results

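Leukocytes are told apart by surface and granule proteins, and 38 genes that encode such proteins were followed here in mouse tongue. They were chosen by name, as markers of all leukocytes (Ptprc), of T cells, of NK and other cytotoxic cells, of B cells, of macrophages, of dendritic and Langerhans cells, and of antigen presentation by MHC class II. Of the 38 genes, 37 had a probe set annotated to them alone, among 18193 genes measured on the array, and Lck was not analysed here. Where a gene had several such probe sets, the one with the highest mean log2 signal over all arrays was used.

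The samples were tongues of adult C57BL/6J mice, an inbred laboratory strain. Control tongues came from 3 untreated mice and 4NQO tongues from 3 mice that drank 4-nitroquinoline 1-oxide (4NQO), which damages DNA and causes oral tumours, for 8 weeks at 100 μg/ml, with 1 array per tongue. A tongue holds epithelium, skeletal muscle, connective tissue, vessels and scattered immune cells, and the labels do not say which part of it was taken. The signals average over all cells of a sample, so that fewer cells of a type and less RNA per cell cannot be told apart. The muscle genes Acta1 and Ckm (log2 signals of 13.55 to 13.91) and the oral keratin genes Krt4 and Krt13 (13.20 to 13.91) were bright on all 6 arrays, as the tissue label has it.

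The oral mucosa holds Langerhans cells within the epithelium, and macrophages, dendritic cells, T cells and mast cells beneath it. Dendritic cells, macrophages and B cells carry MHC class II molecules, which show peptides to CD4+ T cells, while NK cells and CD8+ T cells kill target cells with granzymes and perforin. MHC class II genes share promoter elements, among them the X and Y boxes, through which the coactivator CIITA acts.

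MHC class II genes held the clearest pattern of the lineages, since all 4 lay higher on every 4NQO array than on any control array. So did Itgax, Ccr7, Klrd1, Gzma and Aif1, while the other members of their lineages overlapped. Of 9 other genes of the class II pathway, 1 was apart and higher. No single gene of the 37 passed limma's test over all genes at an adjusted p under 0.05, in either direction. Before adjustment, 12 members had a p under 0.05 and were higher in 4NQO tongue (32.4%, where 6.68% of all genes were so), and 1 was lower (2.70%, against 3.74% of all genes). Of 94 further leukocyte genes measured, 18 were higher (19.1%) and 3 lower (3.19%) in this way. Their groups did not overlap for 14 that were higher (14.9%) and 5 that were lower (5.32%). The counts of each list below stand beside the shares of all genes given in this paragraph. In the test adjusted over all genes, 0.126% of genes passed as higher and 0.00550% as lower. The groups did not overlap for 9 members that were higher, which is 24.3% against 9.59% of all genes, and for 1 that was lower, Cd79a, against 7.18% of all genes. The median log2 fold change (4NQO minus control) was 0.25 over the members and -0.01 over all genes.

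The arrays differed in ways that bear on these genes. The array control probe sets of Gapdh, which sit at either end of its transcript, differed by 1.67 on the log2 scale in control 3 (3′ minus 5′) and by 1.07 in 4NQO 2, where the remaining arrays gave 0.0858 to 0.469. Those of actin ranked the arrays otherwise. They differed most in 4NQO 1, by 1.12, with 1.01 in control 3, 0.95 in 4NQO 2 and 0.55 to 0.83 in the remaining arrays. Within groups, control 2 had the lowest control signal for 22 of the 37 members, and 4NQO 1 had the lowest 4NQO signal for 27. For 17 members the log2 signal was not above the array median on every array (array medians of 4.45 to 4.60), so that these are not shown to be above background, and their differences stay on the log2 scale. With 3 tongues a group, no two-sided permutation test could give a p below 0.1, and nothing in the labels says whether the mice shared cages or litters.

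MHC class II genes are described first. H2-Aa and H2-Ab1 encode the α and β chains of the I-A molecule, H2-Eb1 the β chain of I-E, and Cd74 the invariant chain that guards the peptide groove during assembly. Class II genes were the lineage whose members all lay apart between the groups, so bases before the start of transcription were looked up. No such sequence was available for H2-Ab1, Cd74 was not looked up, and those of H2-Aa and H2-Eb1 are shown. Both are RefSeq sequences of the GRCm38.p6 build, 150 bases that end 1 base before the start, read 5′ to 3′ along the gene, at chr17:34287824-34287973 on the minus strand for H2-Aa and chr17:34305717-34305866 on the plus strand for H2-Eb1. Capitals mark matches to the Y box letters CTGATTGG and to the core of the X box, which do not overlap each other and were searched on both strands.
H2-Aa: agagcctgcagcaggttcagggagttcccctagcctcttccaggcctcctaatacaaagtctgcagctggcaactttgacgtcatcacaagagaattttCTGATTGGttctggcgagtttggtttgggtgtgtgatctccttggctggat
H2-Eb1: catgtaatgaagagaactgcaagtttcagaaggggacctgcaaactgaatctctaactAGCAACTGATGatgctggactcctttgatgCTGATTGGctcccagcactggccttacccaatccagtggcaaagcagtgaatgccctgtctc
The Y box letters lay 51 to 44 bases before the start in H2-Aa and 62 to 55 in H2-Eb1, and they occur in 3.16% of 32851 promoter windows of the same length. The X box core letters were matched in H2-Eb1, 92 to 82 bases before the start, and occur in 0.0335% of the windows. H2-Aa held no match to these exact letters. Other forms of the X box were not searched, so this does not show that H2-Aa lacks one. These matches are a description of the letters and not of binding in these tongues.

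H2-Ab1 had log2 signals of 9.02, 8.23 and 8.91 in control tongues 1 to 3 and of 9.62, 9.86 and 10.42 in 4NQO tongues 1 to 3. The groups did not overlap, and control 2 was the lowest array. The log2 fold change was 1.25 (standard error, SE, 0.27), a 2.38-fold higher signal, with an adjusted p of 0.145 by limma over all genes. H2-Eb1 gave 9.28, 8.52 and 9.19 in control tongues and 9.87, 10.10 and 10.50 in 4NQO tongues. Its groups were as far apart, with a 2.24-fold higher signal in 4NQO tongue (log2 fold change 1.16, SE 0.24, adjusted p = 0.141 by limma). H2-Aa gave 10.06, 9.52 and 10.004 against 10.59, 10.81 and 11.47, a 2.13-fold difference (log2 fold change 1.09, SE 0.25, adjusted p = 0.173 by limma).

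Cd74 was the brightest of the 4, with log2 signals of 10.38, 10.33 and 10.87 in control tongues and of 10.99, 11.21 and 11.83 in 4NQO tongues. Control 3 and 4NQO 1 lay close to each other for this gene, and the log2 fold change of 0.82 (SE 0.24, adjusted p = 0.281 by limma) was the smallest of the 4. All 4 genes ran in the same order over the 4NQO arrays, lowest in 4NQO 1 and highest in 4NQO 3. The further probe sets gave like values, with log2 fold changes of 0.72, 0.91 and 1.13 for the other 3 of H2-Aa and of 1.12 and 1.23 for the other 2 of H2-Ab1, and the groups did not overlap on any of these 5. Probe sets of 1 gene share transcripts and are not independent. Control 3 and 4NQO 2 had the largest Gapdh differences (3′ minus 5′). Without these arrays the log2 fold changes of the 4 genes were 1.06 for Cd74, 1.24 for H2-Aa, 1.29 for H2-Eb1 and 1.40 for H2-Ab1.

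**Figure D1:**
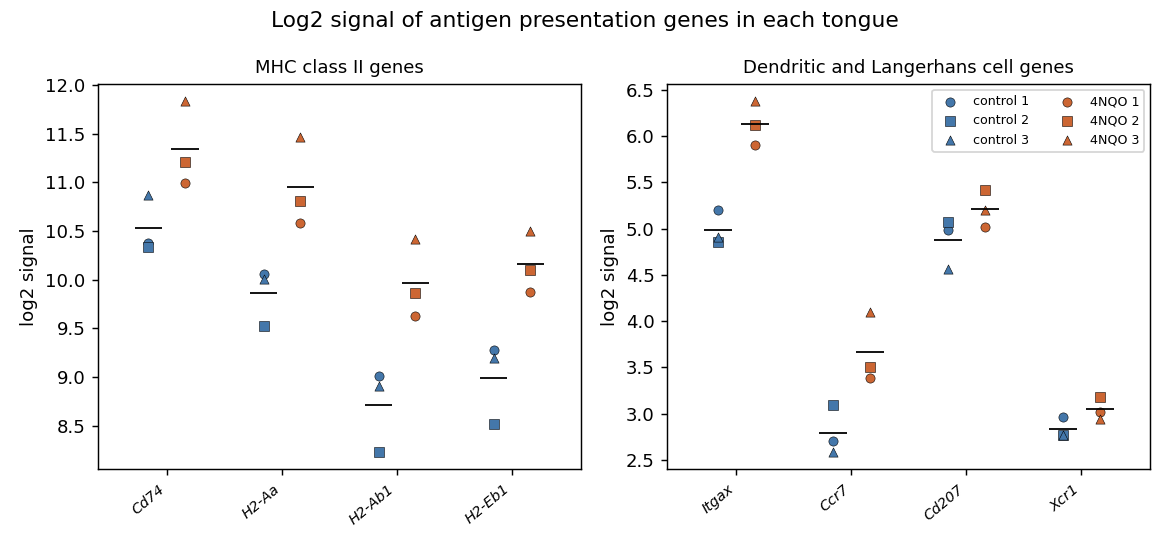
Log2 signal of the 4 MHC class II genes (left) and of the 4 dendritic and Langerhans cell genes (right), where a point is 1 of the 3 control or 3 4NQO tongues and a bar at each group mean. Every 4NQO point lies above every control point for Cd74, H2-Aa, H2-Ab1, H2-Eb1, Itgax and Ccr7, while Cd207 and Xcr1 overlap.

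Of 9 other genes of the class II pathway that were measured, no gene passed in limma, and 2 were higher and none lower with an unadjusted p under 0.05. Their median log2 fold change was 0.16. H2-DMa, a chain of the peptide-loading molecule DM, had log2 signals of 6.77, 6.02 and 6.88 in control tongues and of 6.77, 7.42 and 7.81 in 4NQO tongues, so that 4NQO 1 fell within the control range (log2 fold change 0.78, adjusted p = 0.455 by limma). H2-Oa, a chain of the modulator DO, had a log2 fold change of 0.47 at signals below the array medians on all 6 arrays, and its groups did not overlap. Ciita, the coactivator itself, had a log2 fold change of 0.29 (SE 0.16, adjusted p = 0.576 by limma), also at signals below the array medians.

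Among dendritic and Langerhans cell genes, Itgax stood closest to the threshold of all 37 members. Itgax encodes CD11c, an integrin of dendritic cells and of some macrophages. Its log2 signals were 5.20, 4.86 and 4.91 in control tongues and 5.90, 6.12 and 6.38 in 4NQO tongues. The groups were well apart, and the spread within each was small. The means were 4.99 ± 0.19 (SD, n = 3) and 6.13 ± 0.24 (SD, n = 3), a 2.21-fold difference (log2 fold change 1.15, SE 0.19, 95% interval 0.72 to 1.57), with an adjusted p of 0.0703 by limma. With each array centred on its median the adjusted p was 0.0498, and over all 13 alternatives it ran from 0.0498 to 0.323.

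Ccr7, the receptor that leads mature dendritic cells and naive T cells to lymph nodes, gave log2 signals of 2.70, 3.10 and 2.59 in control tongues and of 3.38, 3.51 and 4.10 in 4NQO tongues. The groups did not overlap, but all 6 signals lay below the array medians (log2 fold change 0.87, SE 0.22, adjusted p = 0.219 by limma). Cd207 encodes langerin, the lectin that defines Langerhans cells, and its control signals of 4.98, 5.07 and 4.57 overlapped the 4NQO signals of 5.02, 5.42 and 5.20. Its log2 fold change was 0.34 (95% interval -0.11 to 0.79, adjusted p = 0.584 by limma). Xcr1, a chemokine receptor of cross-presenting dendritic cells, lay between 2.77 and 3.18 on all arrays, below the array medians, with a log2 fold change of 0.21 (adjusted p = 0.583 by limma). The class of 4 therefore held a pair that did not overlap and a pair that did.

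Of 9 other dendritic and Langerhans cell genes measured, none passed, 1 was higher at an unadjusted p under 0.05 and none was lower, and the median log2 fold change was 0.31. That gene was Ccl22, a chemokine made by dendritic cells and macrophages, with log2 signals of 4.56, 3.94 and 4.02 against 4.90, 5.30 and 5.50 (log2 fold change 1.06, SE 0.23, adjusted p = 0.148 by limma). Its control signals lay below the array medians. Flt3, the receptor that supports dendritic cell development, had the next smallest p, with a log2 fold change of 0.42 and overlapping groups (adjusted p = 0.540 by limma).

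Ptprc encodes CD45, the phosphatase found on all nucleated blood cells. Its log2 signals were 5.81, 5.17 and 6.12 in control tongues and 6.05, 7.22 and 7.19 in 4NQO tongues. 4NQO 2 and 3 lay above every control, and 4NQO 1 lay below control 3. The log2 fold change was 1.12 (SE 0.36, adjusted p = 0.339 by limma). The other, dimmer probe set of Ptprc gave 0.17, so that the mean of both gave 0.65. Among 12 other genes that leukocytes of all kinds use, none passed over all genes, 4 were higher at an unadjusted p under 0.05 and none was lower, with a median log2 fold change of 0.52. Cd52, a small surface glycoprotein, had log2 signals of 6.49, 5.68 and 6.54 against 7.05, 7.93 and 8.15 (log2 fold change 1.48, SE 0.34, adjusted p = 0.181 by limma). Lcp1, an actin-bundling protein of leukocytes, had a log2 fold change of 0.95, and the groups did not overlap for either gene.

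NK and cytotoxic genes were dim, and none of the 6 was above the array median on all arrays. Klrd1, which encodes CD94, a receptor subunit of NK cells and some CD8+ T cells, had log2 signals of 4.03, 3.74 and 3.86 in control tongues and of 4.72, 5.88 and 5.91 in 4NQO tongues. The groups did not overlap, and 4NQO 1 lay closest to the controls. The log2 fold change of 1.63 (SE 0.32, 95% interval 0.90 to 2.36) was the largest of the 37 members as measured, and the adjusted p was 0.116 by limma. Without 4NQO 1 the log2 fold change was 2.02 and the adjusted p 0.0347 by limma, and over all 13 alternatives the adjusted p ran from 0.0347 to 0.385.

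Gzmb, granzyme B, a protease of killer cell granules, had log2 signals of 3.58, 2.98 and 3.01 in control tongues and of 3.51, 4.16 and 4.39 in 4NQO tongues. Here too 4NQO 1 fell within the control range, and the log2 fold change was 0.83 (SE 0.26, adjusted p = 0.316 by limma). Nkg7, a granule membrane protein, had 3.32, 3.88 and 3.52 against 3.58, 4.87 and 4.88, where 4NQO 1 again lay within the control range, with a log2 fold change of 0.87 (adjusted p = 0.447 by limma). Gzma, granzyme A, lay between 2.75 and 3.15 on all arrays, and its groups did not overlap although its log2 fold change was 0.20 (adjusted p = 0.586 by limma).

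Prf1, the pore-forming perforin, differed in direction, with log2 signals of 5.31, 4.71 and 4.64 in control tongues and of 4.78, 4.35 and 4.52 in 4NQO tongues and a log2 fold change of -0.34 (adjusted p = 0.630 by limma). Ncr1, the NKp46 receptor of NK cells, lay between 2.25 and 2.75 on all arrays, with a log2 fold change of 0.02. Over the 6 genes the log2 fold changes ran from -0.34 to 1.63, with a median of 0.51. Of 10 other NK and cytotoxic genes, none passed over all genes, and 1 was higher at an unadjusted p under 0.05. This was Ctsw, cathepsin W, a protease of cytotoxic lymphocytes, with log2 signals of 4.31, 4.04 and 4.35 against 4.55, 5.002 and 5.09 (log2 fold change 0.65, adjusted p = 0.290 by limma). Its control signals lay below the array medians. Klrk1, the activating receptor NKG2D, had a log2 fold change of 0.79 with overlapping groups (adjusted p = 0.518 by limma), at signals below the array medians on 5 arrays. The median over the 10 genes was 0.04.

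T cell genes had log2 fold changes of both signs, 6 above 0 and 2 below, with a median of 0.20. Cd3g, Cd3d and Cd3e encode the γ, δ and ε chains of CD3, which signal for the T cell receptor. Cd3g had log2 signals of 3.74, 3.45 and 3.33 in control tongues and of 3.67, 5.01 and 4.66 in 4NQO tongues. Cd3d had 4.61, 4.24 and 4.55 against 4.31, 5.67 and 5.46. For both genes 4NQO 2 and 3 lay above every control and 4NQO 1 within the control range, with log2 fold changes of 0.94 (SE 0.32, adjusted p = 0.374 by limma) and 0.68 (SE 0.34, adjusted p = 0.538 by limma). Cd3e also had 4NQO 2 and 3 above every control and 4NQO 1 among them, at a smaller log2 fold change of 0.16.

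Cd4 and Cd8a, the coreceptors that divide helper from cytotoxic T cells, had log2 fold changes of -0.02 (95% interval -0.41 to 0.37) and 0.07 (95% interval -0.28 to 0.41). All Cd4 signals lay between 4.49 and 4.94 and all Cd8a signals between 4.68 and 5.02, close to the array medians. The other 4 probe sets of Cd8a gave -0.11 to 0.23. Cd2, an adhesion receptor of T and NK cells, had log2 signals of 4.45, 3.42 and 4.36 against 3.99, 4.63 and 4.94 (log2 fold change 0.44, adjusted p = 0.671 by limma). Cd5, an inhibitory receptor of T cells, had 0.24, and Zap70, the kinase downstream of the T cell receptor, had -0.19, with signals of 6.44, 6.40 and 6.36 against 6.40, 5.88 and 6.35. Among 10 other T cell genes none passed, 2 were higher at an unadjusted p under 0.05 and none was lower, with a median log2 fold change of 0.09. Those were Icos, a costimulatory receptor (0.57, overlapping groups), and Cd6, a CD5-like receptor (0.35, at signals below the array medians).

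Over the 3 B cell genes the log2 fold changes had a median of -0.28, the only negative one among the lineages with all 6 arrays, and it was -0.11 without 4NQO 2. Cd79a and Cd79b encode the signalling chains of the B cell receptor. Cd79a had log2 signals of 4.60, 4.28 and 4.24 in control tongues and of 4.03, 3.26 and 4.07 in 4NQO tongues, a log2 fold change of -0.59 (SE 0.24, adjusted p = 0.454 by limma). Its groups did not overlap, and all signals but that of control 1 lay below the array medians. Cd79b had 4.64, 4.56 and 4.75 against 4.68, 3.82 and 4.62, where 4NQO 2 alone was low (log2 fold change -0.28, adjusted p = 0.712 by limma). Ms4a1, which encodes CD20, had 3.38, 2.77 and 2.92 against 2.96, 3.04 and 2.87, all below the array medians (log2 fold change -0.07). Among 8 other B and plasma cell genes, none passed, 1 was higher and 1 lower with an unadjusted p under 0.05, and the median log2 fold change was 0.16. The gene that was lower was Pax5, the transcription factor that fixes B cell identity (-0.40), and the one that was higher was Fcrla, an Fc receptor-like protein of B cells (0.23), both at signals below the array medians.

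**Figure D2:**
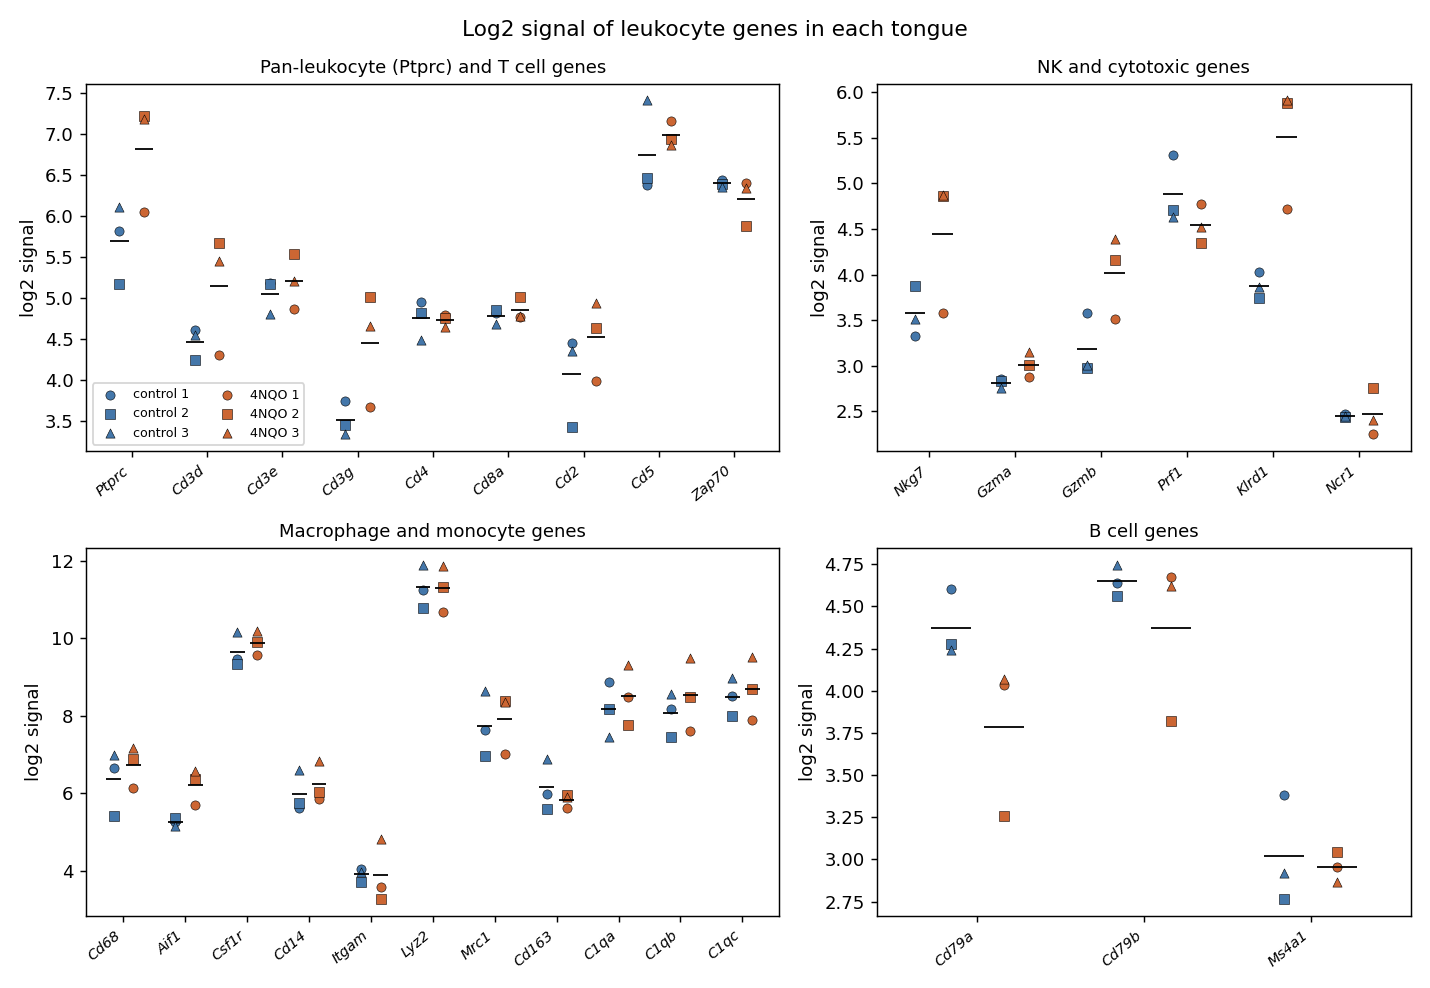
Log2 signal of Ptprc and 8 T cell genes, 6 NK and cytotoxic genes, 11 macrophage genes and 3 B cell genes, where a point is 1 of the 3 control or 3 4NQO tongues and a bar at each group mean. For Ptprc, Cd3g, Cd3d, Gzmb and Nkg7, 4NQO 2 and 3 lie above the controls and 4NQO 1 among them, and for most macrophage genes the groups lie over each other.

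Macrophage genes overlapped between the groups for 10 of 11 members, as 83.2% of all genes did. Their median log2 fold change was 0.23, and it was -0.04 without control 2, -0.04 without 4NQO 3 and 0.49 without control 3. The exception was Aif1, an actin-binding protein also called IBA1. It had log2 signals of 5.24, 5.36 and 5.16 in control tongues and of 5.69, 6.37 and 6.58 in 4NQO tongues. All 4NQO arrays lay above the controls, with a 1.95-fold difference (log2 fold change 0.96, SE 0.24, adjusted p = 0.216 by limma).

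Csf1r, the receptor for the macrophage growth factor CSF1, had log2 signals of 9.46, 9.34 and 10.16 in control tongues and of 9.56, 9.91 and 10.20 in 4NQO tongues, where control 3 was nearly as high as 4NQO 3 (log2 fold change 0.23, 95% interval -0.34 to 0.81). Lyz2, lysozyme M, the brightest member, had 11.26, 10.79 and 11.90 against 10.68, 11.34 and 11.87, with a log2 fold change of -0.02 (95% interval -0.83 to 0.78). In both genes the arrays of a group differed more than the group means did. Mrc1 and Cd163, scavenger receptors of resident macrophages, had log2 fold changes of 0.17 and -0.33, and control 3 was the highest of all arrays for both (8.64 and 6.87). Cd163 had the second-smallest p of the lineage after Aif1, with signals of 5.98, 5.60 and 6.87 against 5.61, 5.95 and 5.91 and an adjusted p of 0.734 by limma.

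C1qa, C1qb and C1qc encode the chains of complement C1q, which tissue macrophages make, and their log2 fold changes were 0.35, 0.46 and 0.21. C1qb gave 8.18, 7.46 and 8.56 in control tongues and 7.61, 8.49 and 9.49 in 4NQO tongues (adjusted p = 0.753 by limma). C1qb and C1qc were highest in 4NQO 3 and low in both control 2 and 4NQO 1, whereas C1qa was lowest in control 3. Cd68, a lysosomal protein, had 0.37 (SE 0.43), with control 2 at 5.41 and the other arrays between 6.14 and 7.17. Cd14, the lipopolysaccharide coreceptor, had 0.25, and Itgam, which encodes the integrin CD11b, had -0.01 with a single high array, 4NQO 3, at 4.82.

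Among 14 other macrophage genes none passed over all genes, 5 were higher and 1 lower with an unadjusted p under 0.05, and the median log2 fold change was 0.62. Mpeg1, a pore-forming protein of macrophages and dendritic cells, had log2 signals of 6.19, 5.23 and 6.30 in control tongues and of 6.73, 7.63 and 7.72 in 4NQO tongues (log2 fold change 1.45, SE 0.36, adjusted p = 0.207 by limma). Cx3cr1, the fractalkine receptor of monocytes and some macrophages, had 4.43, 4.15 and 4.39 against 5.01, 4.67 and 5.11 (log2 fold change 0.61, adjusted p = 0.277 by limma). The groups did not overlap for either gene, and the control signals of Cx3cr1 lay below the array medians. Of the other 3 genes that were higher, Ms4a7, a tetraspan membrane protein of macrophages, had the largest log2 fold change of the list, 2.13, with signals of 4.73, 3.61 and 6.00 against 5.83, 7.52 and 7.39 that overlapped (adjusted p = 0.298 by limma). Fcgr1, a high-affinity Fc receptor, had 1.29 with groups apart and control signals below the array medians. Ctss, the protease cathepsin S, had 1.09 with overlapping groups. The gene that was lower was Siglec1, a sialic acid-binding receptor of macrophages (-0.39), whose groups did not overlap at signals below the array medians.

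**Figure D3:**
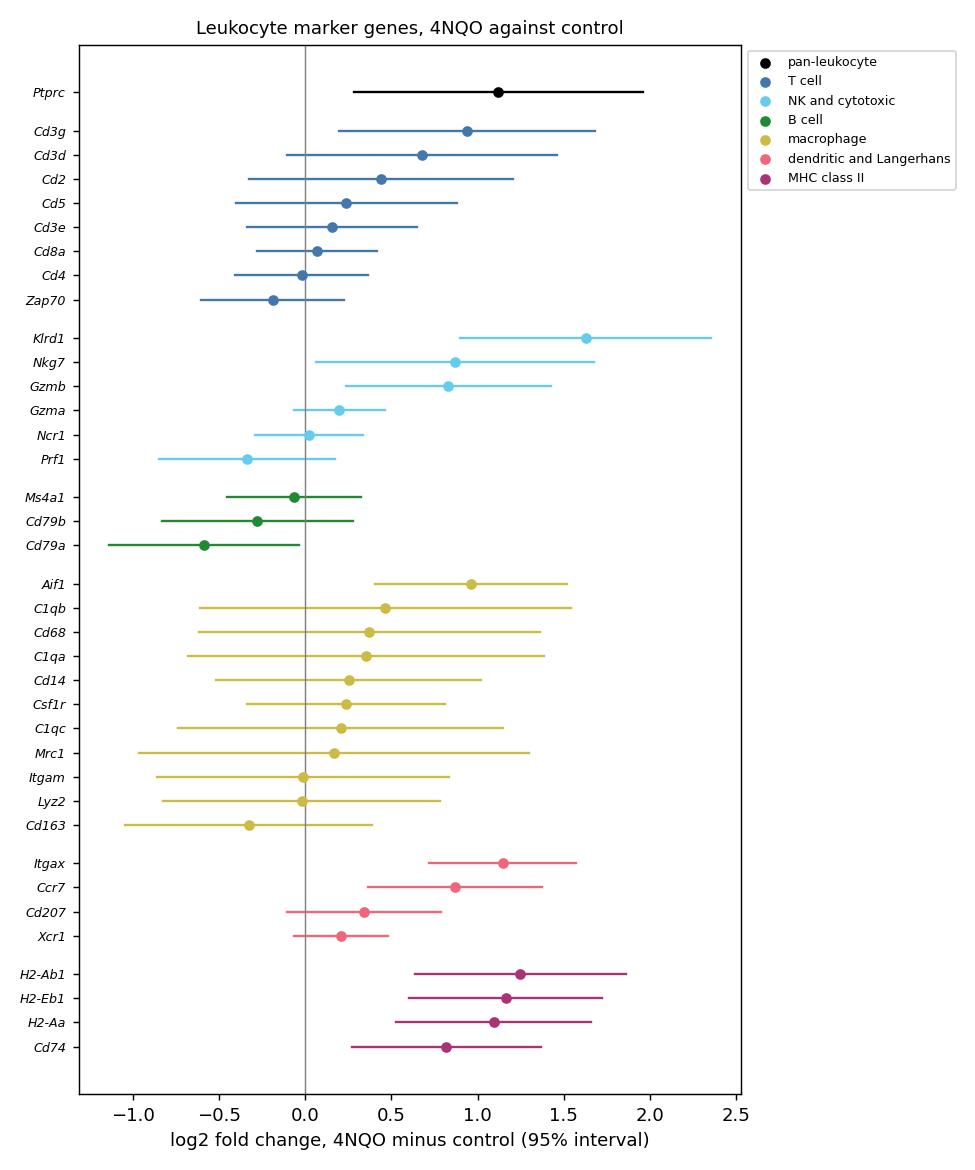
Log2 fold change (4NQO minus control) of the 37 measured leukocyte genes with its 95% interval by limma, not adjusted for the number of genes, grouped by lineage and sorted within each. The intervals lie above 0 for all 4 MHC class II genes, for Itgax, Ccr7, Aif1, Klrd1, Gzmb, Nkg7, Cd3g and Ptprc, and below 0 for Cd79a.

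The lineages can be set side by side within each tongue. The median over the 4 MHC class II genes of each gene's difference from its mean control signal (log2) was 0.24, -0.41 and 0.19 in control tongues 1 to 3 and 0.80, 1.03 and 1.56 in 4NQO tongues 1 to 3. The groups did not overlap. Over the 11 macrophage genes the same measure was -0.01, -0.50 and 0.51 in control tongues and -0.33, 0.20 and 0.84 in 4NQO tongues, and the groups did overlap. The class II median minus the macrophage median was 0.25, 0.09 and -0.32 in control tongues and 1.13, 0.83 and 0.72 in 4NQO tongues. Class II genes were therefore higher relative to macrophage genes in all 3 4NQO tongues than in any control tongue, a description with no test.

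For dendritic and Langerhans cell genes the macrophage median was subtracted in the same way, which gave 0.13, 0.56 and -0.65 in control tongues and 0.72, 0.43 and -0.02 in 4NQO tongues, and the groups overlapped. Without that subtraction the dendritic and Langerhans cell median kept the groups apart, at 0.12, 0.06 and -0.14 in control tongues and 0.39, 0.63 and 0.82 in 4NQO tongues. For NK and cytotoxic genes 4NQO 1 lay at 0.03, below control 1 at 0.10, while 4NQO 2 and 3 lay at 0.64 and 0.77. For T cell genes the values were 0.14, -0.03 and -0.07 against -0.01, 0.36 and 0.14, and for B cell genes 0.23, -0.10 and -0.10 against -0.06, -0.83 and -0.15. Counted over the 37 members, 4NQO 1 lay above all controls for 10, 4NQO 2 for 20 and 4NQO 3 for 24. In 8 members, Ptprc, Cd3d, Cd3e, Cd3g, Cd2, Nkg7, Gzmb and Cd207, 4NQO 2 and 3 were above every control and 4NQO 1 was not.

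**Figure D4:**
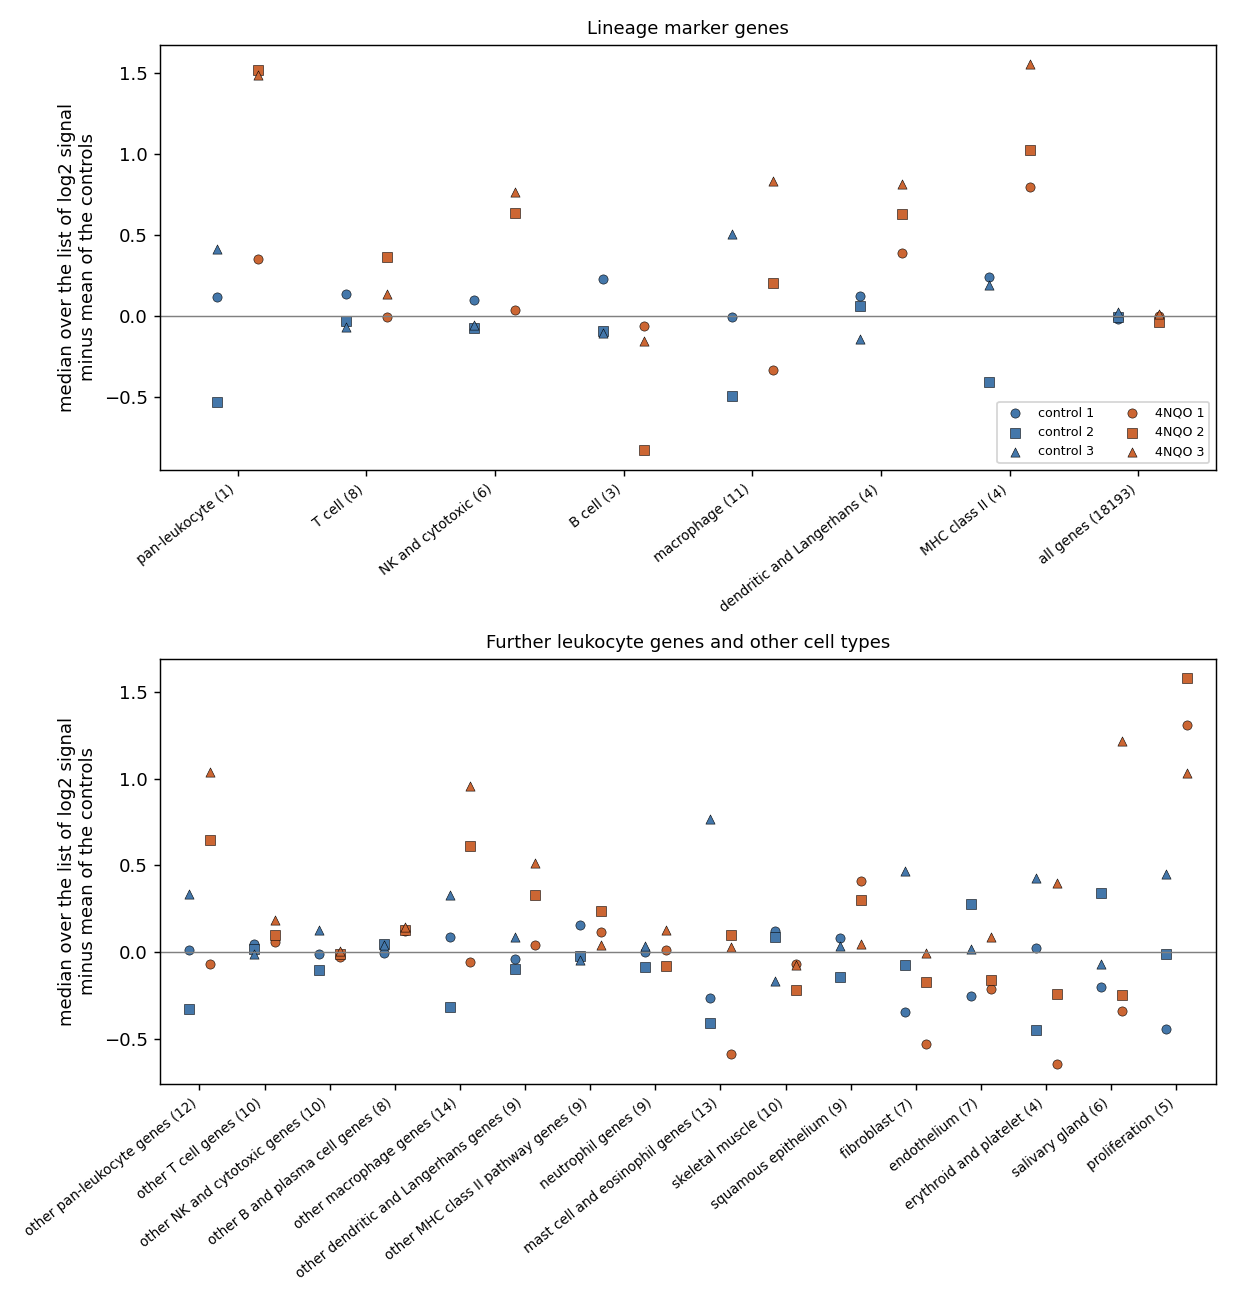
Median of each list after subtracting the mean control signal of every gene (log2), where a point is 1 of the 3 control or 3 4NQO tongues and brackets give the number of genes. Above are the lineages and all 18193 genes, below further leukocyte genes and other cell types. The 4NQO tongues lie between 0.80 and 1.56 for MHC class II and between -0.33 and 0.84 for macrophage genes, where all genes lie between -0.04 and 0.03.

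Markers of the other cells of a tongue were compared in the same way, and none of the 48 genes measured passed over all genes. Their summed signals, on the log2 scale, ran from 16.29 to 16.59 in control and from 16.27 to 16.44 in 4NQO tongues for 10 muscle genes (median log2 fold change -0.14, groups apart for 1 gene that was lower). For 9 genes of squamous epithelium they ran from 15.82 to 15.90 and from 15.96 to 16.12 (0.31, apart for 2 that were higher), and for 7 fibroblast genes from 13.91 to 14.28 and from 13.57 to 13.97 (-0.22, apart for 2 that were lower). For 7 endothelial genes they ran from 11.08 to 11.61 and from 11.09 to 11.37 (-0.06, apart for none), and for 4 erythroid and platelet genes from 8.56 to 9.72 and from 8.24 to 9.61 (-0.28, apart for 1 that was lower). Salivary gland genes varied most between tongues, since Bpifb1, a secreted protein of glands, had log2 signals of 4.33, 13.12 and 10.83 in control tongues and of 4.14, 5.004 and 13.72 in 4NQO tongues (6 genes, summed signals of 5.90 to 13.14 and of 5.92 to 13.75, median 0.06, apart for none). The summed epithelial signals did not overlap between the groups and lay in the direction of the class II genes. Among them Sfn, 14-3-3σ, had log2 signals of 10.89, 10.54 and 10.62 against 11.80, 11.39 and 11.58 (log2 fold change 0.91, adjusted p = 0.0703 by limma). The part of the tissue makeup of each tongue in the leukocyte results was not tested.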

How the data were processed

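Total RNA from 6 tongues was hybridized to Affymetrix mouse arrays of 45101 probe sets, 1 array per tongue. Normalization was done by the authors with Bioconductor packages in R, and each deposited value is the log2 signal of a probe set. No source used here names the method. The authors ran SAM, which was not rerun here.

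The platform annotation gave the genes of the probe sets: 34945 had 1 gene, 932 several, 9160 none and 64 were array controls. Entrez IDs led to current symbols through RefSeq (GRCm38.p6) for 18032 of 18193 genes. Dim genes were kept. The test was limma 3.58.1 under R 4.3.3 (lmFit and eBayes with an intensity trend, Benjamini-Hochberg adjustment over all 18193 genes, threshold 0.05). Standard errors of the members were 0.11 to 0.49 on the log2 scale with 3 arrays a group.

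The members and lists were chosen with earlier results of these data known. Beside the 7 lineages, 9 further leukocyte lists and 7 lists of other cell types were written for this tissue. One salivary gene, Muc19, is listed by the reference under Smgc and was measured as that. All members are accounted for. Array values were set down for Ptprc and for up to 4 members per lineage with the smallest p, with up to 2 genes of each further list. Ciita, Ms4a7, Fcgr1, Ctss, Siglec1, Bpifb1, Ngp, Csf3r, Ltf, Camp, Mpo, Elane, Cxcr2, Cpa3, Cma1, Mcpt4, Acta1, Ckm, Krt4, Krt13, Csf1r, Lyz2, Mrc1, Cd68 and other members beyond that number were chosen after their values were seen. The fit was repeated after quantile normalization, with each array centred, without dim genes, averaging probe sets, no intensity trend, the replicate number as a block and leaving out each array. A fit without control 3 and 4NQO 2 was chosen after seeing the data.

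Tested on simulated data for 4NQO against control with 18193 genes, the fit found 69 of 100 genes set to a log2 change of 1 and 97 of 100 set to 2, beside 10 false calls. The simulation drew independent normal noise around each gene's control mean, with variances from the limma fit. It held no differences between whole arrays, which these data have, so these shares check the code and do not give the power here.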

Additional observations from a re-analysis of the deposited data

How the results depend on the processing

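Over 13 alternatives the members past the threshold numbered 0, except 1 (Itgax) with each array centred on its median and 0 to 1 (Klrd1, without 4NQO replicate 1) when single arrays were left out. Members whose groups did not overlap numbered 9 to 17 as higher without single arrays, most of them without 4NQO replicate 1, and 1 to 3 as lower, with 0 lower when dim genes were left out (25 members tested) and 4 lower without control 3 and 4NQO 2, the Gapdh arrays. Such counts grow by construction with fewer arrays. Over all genes, 23 were higher and 1 lower. These became 63 and 2 with arrays centred, 15 higher with probe sets averaged, 3 lower with dim genes left out, 2 lower without an intensity trend, and 4 and 0 without both Gapdh arrays. Leaving out single arrays gave 0 to 25 higher and 0 to 2 lower, with 0 higher without control replicate 2, 1 without 4NQO replicate 2 and 10 without 4NQO replicate 1. Nothing in the labels says that replicate numbers pair the tongues. Deviations of same-numbered arrays from their group means correlated at 0.29, -0.51 and 0.05. Only control 1 correlated best with the array of its own number in the other group. Deviations within a group of 3 sum to 0 and so constrain one another, and this check cannot exclude a shared batch or litter. With the replicate block 2 genes were higher, 0 lower, and 0 members passed. Of the further lists and other cell types, 1 gene, Sfn, passed with arrays centred. Medians of the lineages moved by less than the spread between replicates in each alternative that gave one, and no B cell gene was left without dim genes. Without single arrays the medians were 0.91 to 1.29 for MHC class II, 0.48 to 0.73 for dendritic and Langerhans cells, 0.39 to 0.67 for NK and cytotoxic cells, 0.11 to 0.30 for T cells, -0.43 to -0.11 for B cells, 0.86 to 1.504 for Ptprc and 0.15 to 0.56 over all members. For macrophages they were -0.04 to 0.49, with the sign turned without control replicate 2 and without 4NQO replicate 3.

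Of 469 pairs of a member and an alternative, 431 kept direction and side, 2 passed and 36 changed direction, all in 15 members. The largest log2 fold change among those members in the main fit was 0.46 (C1qb, SE 0.47). With arrays centred the log2 fold change was 0.0532 for Cd4, 0.00988 for Ms4a1, 0.0616 for Itgam and 0.0530 for Lyz2, and with quantile normalization 0.0527 for Cd4 and 0.0354 for Itgam. Without both Gapdh arrays it was -0.14 for Cd3e, -0.0645 for Cd8a, -0.12 for Ncr1, 0.0465 for Cd79b, 0.33 for Itgam and 0.25 for Lyz2. Without single arrays it ran from -0.154 to 0.0753 for Cd4, -0.0129 to 0.323 for Cd3e, -0.0146 to 0.11 for Cd8a, -0.12 to 0.13 for Ncr1, -0.19 to 0.11 for Ms4a1, -0.48 to 0.30 for Itgam, -0.31 to 0.29 for Lyz2, -0.22 to 0.62 for Mrc1, -0.60 to 0.0317 for Cd163, -0.10 to 0.69 for Cd68, -0.0409 to 0.56 for Cd14, -0.0414 to 0.73 for C1qa, -0.0153 to 0.93 for C1qb and -0.20 to 0.61 for C1qc. The cause of these changes was not tested.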

Other observations

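Granulocyte and mast cell genes, which the lineages above leave out, did not share a direction between control and 4NQO tongues. Of 9 measured neutrophil genes no gene passed over all genes, and the median log2 fold change was 0.20. S100a8 and S100a9, subunits of calprotectin, which neutrophils and stressed keratinocytes both make, stood far above the rest of that list. S100a8 had log2 signals of 7.01, 5.79 and 7.45 in control tongues and of 8.04, 9.27 and 11.24 in 4NQO tongues (log2 fold change 2.76, standard error, SE, 0.76, adjusted p = 0.261 by limma). S100a9 had 6.34, 6.38 and 7.72 against 7.09, 9.61 and 11.55, so that 4NQO 1 lay below control 3 (log2 fold change 2.60, SE 0.98, adjusted p = 0.425 by limma). The other 7 genes went both ways. Ltf, lactoferrin, which glands also secrete, had 0.64 with signals from 3.01 to 9.82, Csf3r, the receptor for G-CSF, had 0.27, and Cxcr2, a chemokine receptor of neutrophils, had 0.20. Ngp, a neutrophil granule protein, had -0.37 with groups that did not overlap, Mpo, myeloperoxidase, had -0.18, Elane, neutrophil elastase, had -0.15 and Camp, cathelicidin, had -0.05. Of these, Ngp, Mpo, Elane, Camp and Cxcr2 lay below the array medians on all arrays.

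Of 13 mast cell and eosinophil genes, 1 was lower and none higher at an unadjusted p under 0.05, and the median log2 fold change was -0.05. Cpa3, a mast cell carboxypeptidase, had log2 signals of 7.02, 6.67 and 8.93 in control tongues and of 6.75, 8.20 and 7.88 in 4NQO tongues. Cma1 and Mcpt4, mast cell chymases, were likewise highest in control 3, at 8.72 and 7.98. The gene that was lower, Epx, eosinophil peroxidase, had -0.44 at signals below the array medians. Proliferation genes were higher on every 4NQO array than on any control array for all 5 measured (median log2 fold change 1.34), where 9.59% of all genes were so. Among them Birc5 had 1.41 (adjusted p = 0.104 by limma).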
